A study of Mus musculus with 4 samples.

Results

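PPARγ regions at bidirectional promoters were described in alveolar macrophages (AMs) from wild-type mice. Peaks of the ChIP libraries were merged wherever they overlapped by at least 1 bp, and merged regions holding peaks of both libraries were kept, which gave 20233 consensus regions on mm10. A promoter window ran from 1 kb before the transcription start site (TSS) of a protein-coding gene to 100 bp past it. A region was a member when its centre lay in the window of a TSS that had the TSS of another protein-coding gene on the opposite strand within 1 kb, with the genes pointing away from each other. There were 461 such regions. Curated RefSeq transcripts gave 932 divergent gene pairs of this kind, with 1849 genes among 21000 protein-coding genes. The rule used position only and no enrichment value beyond the authors' peak calls.

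The series holds 2 PPARγ HT-ChIPmentation libraries (library 1 and library 2, numbered as in the labels) and 2 input libraries, all from WT C57BL/6J AMs. HT-ChIPmentation is a chromatin immunoprecipitation in which a transposase adds the sequencing adapters while the chromatin is still on the beads. The cells were sorted from bronchoalveolar lavage of mice that were 9 weeks old, in small aliquots, and no treatment or mutant allele was involved. Nothing in the sources used here ties each library to its own animal or pool, so their spread may be technical. There is 1 ChIP group, so no contrast between conditions was made. Library 1 gave 83787 peaks and library 2 gave 28535, and the peak lists carry no read counts, so the depth behind each value is unknown. Shares are given with 95% Wilson intervals, differences of shares with Newcombe intervals and medians with order-statistic intervals. These intervals cover counting error over regions or genes only, and neighbouring regions and genes that share a promoter are not independent.

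PPARγ is a ligand-activated nuclear receptor that pairs with a retinoid X receptor (RXR) and binds the direct repeat called DR1, in which AGGTCA hexamers stand 1 base apart. In AMs it is required for maturation and for the genes of lipid handling. At a bidirectional promoter, a minus-strand gene and a plus-strand gene start from a common stretch of DNA, which is usually a CpG island and often carries sites for factors such as NRF1, NF-Y, GABPA and YY1. Genes arranged in this way are often housekeeping genes of DNA repair, mitochondria, chaperones and the core histones.

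The DNA between the TSSs is shown for 7 members in which the TSSs lay 40 to 300 bp apart and no other annotated transcript crossed the interval. The first 3 are the best-ranked members of this kind, and the others are the best-ranked members with an NRF1, NF-Y, ETS or PU.1 pattern between the TSSs. Sequences are from the GRCm38.p6 (mm10) genome, plus strand, 5′ to 3′, and end at the base before each TSS. Capitals mark matches on either strand to the promoter patterns searched here. The NRF1 pattern was TGCGCANGC, and the PU.1 pattern was GAGGAAGT. The pattern searched for NF-Y, the factor of the CCAAT box, was CCAATCA with the accepted variant CCAATGA. The ETS factors were represented by CCGGAAG, and a TATA box was taken as TATAAA. A match is a description of the letters, not evidence of a bound site. The intervals lie at chr13:23683960-23684198 (H2ac6/H2bc4), chr5:108132621-108132913 (Tmed5/Ccdc18), chr13:23574208-23574380 (H2bc7/H2ac7), chr7:122132947-122133040 (Palb2/Dctn5), chr13:21753913-21754075 (H2ac15/H2bc15), chr6:124712179-124712288 (Emg1/Phb2) and chr12:64965537-64965741 (Klhl28/Togaram1).
H2ac6/H2bc4: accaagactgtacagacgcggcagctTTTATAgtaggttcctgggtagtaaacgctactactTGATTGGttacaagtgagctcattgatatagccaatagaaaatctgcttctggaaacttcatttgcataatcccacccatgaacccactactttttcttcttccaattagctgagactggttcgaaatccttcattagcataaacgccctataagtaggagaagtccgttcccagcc
Tmed5/Ccdc18: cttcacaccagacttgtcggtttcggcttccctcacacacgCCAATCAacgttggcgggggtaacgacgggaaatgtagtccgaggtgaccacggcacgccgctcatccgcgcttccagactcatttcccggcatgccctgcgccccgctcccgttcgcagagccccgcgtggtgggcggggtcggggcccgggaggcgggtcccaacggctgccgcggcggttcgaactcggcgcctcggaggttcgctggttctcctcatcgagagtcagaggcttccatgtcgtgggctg
H2bc7/H2ac7: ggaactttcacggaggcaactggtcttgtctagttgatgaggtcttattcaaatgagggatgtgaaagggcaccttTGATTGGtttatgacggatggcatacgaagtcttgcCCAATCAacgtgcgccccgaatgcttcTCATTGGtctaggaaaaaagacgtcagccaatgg
Palb2/Dctn5: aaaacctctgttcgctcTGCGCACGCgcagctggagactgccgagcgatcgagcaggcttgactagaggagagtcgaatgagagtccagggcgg
H2ac15/H2bc15: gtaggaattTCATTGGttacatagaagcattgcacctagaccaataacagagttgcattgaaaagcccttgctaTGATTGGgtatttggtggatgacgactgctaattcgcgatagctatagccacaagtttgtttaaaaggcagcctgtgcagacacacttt
Emg1/Phb2: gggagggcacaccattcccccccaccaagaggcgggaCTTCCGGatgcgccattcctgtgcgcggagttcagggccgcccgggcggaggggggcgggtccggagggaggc
Klhl28/Togaram1: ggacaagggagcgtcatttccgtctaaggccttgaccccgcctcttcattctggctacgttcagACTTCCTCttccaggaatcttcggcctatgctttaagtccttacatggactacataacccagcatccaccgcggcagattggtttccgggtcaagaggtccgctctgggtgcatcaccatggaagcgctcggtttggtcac

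In H2ac6/H2bc4 the summits of both libraries fell between the TSSs, 31 bp and 94 bp to the right of the H2ac6 TSS in library 1 and library 2. The Klhl28/Togaram1 summits also lay inside the printed interval, 47 and 173 bp from the Klhl28 TSS. By contrast, the Tmed5/Ccdc18 summits lay 724 and 705 bp inside Tmed5, outside the printed DNA. The GC content of the 3 histone intervals was 42.7% (H2ac6/H2bc4), 47.4% (H2bc7/H2ac7) and 41.7% (H2ac15/H2bc15), and that of Emg1/Phb2 was 74.6%.

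A consensus region lay in the promoter window of either gene in 413 of the 932 divergent gene pairs (44.3%, 41.2 to 47.5). Of these pairs, 363 had 1 region, 46 had 2 and 4 had 3. A further 353 pairs (37.9%) had a peak of library 1 only, 6 (0.644%) of library 2 only, 23 (2.47%) had peaks of both that did not form a shared region in the window, and 137 (14.7%) had no peak in either library. Counted by gene, with the region in the window of the gene's own paired TSS, 698 of 1849 genes of divergent pairs had one (37.8%, 35.6 to 39.98). Among the 19151 other protein-coding genes, 2845 had a region in the window of a TSS (14.9%, 14.4 to 15.4). The difference was 22.9 percentage points (20.7 to 25.2). One region can count for both genes of a pair, and in 275 of the 461 members (59.7%) the centre lay in the windows of both TSSs. Base composition was looked at 100 bp on each side. Around the TSS of lowest coordinate of each other gene, the median CpG observed/expected ratio was 0.857 with a region and 0.524 without. That TSS need not be the one with the region. Around the midpoint of divergent pairs the ratio was 0.868 (0.847 to 0.8965) with a region and 0.850 (0.821 to 0.879) without, and these intervals overlapped. In the 137 pairs with no peak in either library it was 0.772 (0.702 to 0.823), below the interval of pairs with a region. With 50 bp on each side it was 0.805 (0.660 to 0.887) in these 137 and 0.881 (0.850 to 0.918) with a region, and the intervals overlapped. The part of composition in the difference was not tested. Gene expression and open chromatin were not analysed here. These counts depended on the libraries: library 1 alone marked 84.7% of pairs with 1383 regions, and library 2 alone marked 46.2% with 531 regions.

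The share of pairs with a region varied with the distance between the TSSs. It was 32.8% (27.9 to 38.1) of 320 pairs with TSSs at most 100 bp apart, 42.7% of 248 pairs at 101 to 200 bp, 56.1% of 139 pairs at 201 to 300 bp, 61.3% (52.0 to 69.8) of 111 pairs at 301 to 500 bp and 49.1% (40.1 to 58.2) of 114 pairs at 501 to 1000 bp. The intervals of the closest pairs and of the pairs at 301 to 500 bp did not overlap. Each library alone had its lowest or next to lowest share in the closest pairs. Library 1 had a peak at 81.6% of the closest pairs and at 91.9% of those at 301 to 500 bp, while library 2 had one at 36.9% and 64.0%. The joint window of a pair becomes shorter as its TSSs move apart, and its part in these shares was not tested.

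**Figure D1:**
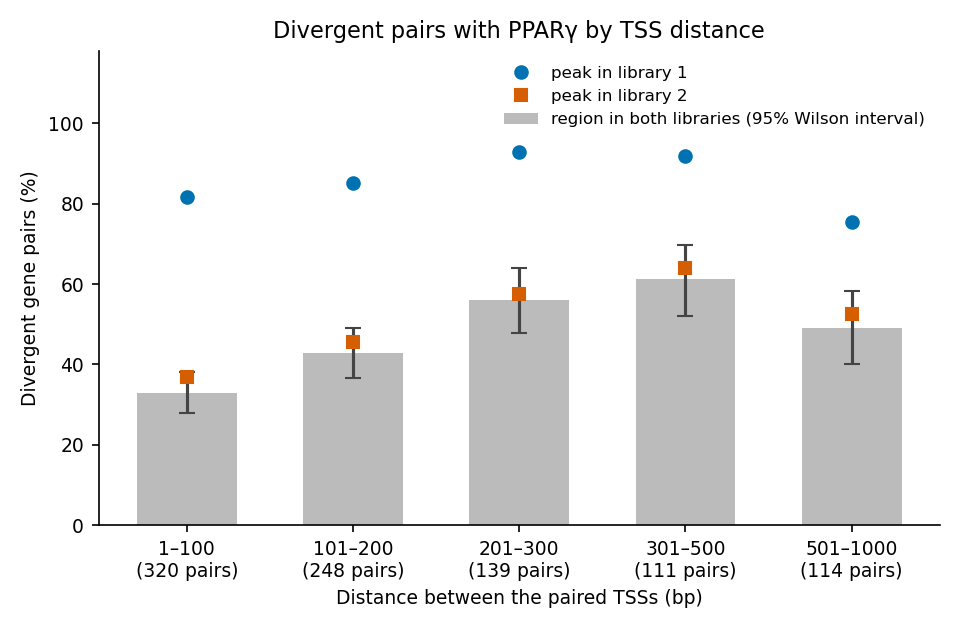
Share of divergent gene pairs with PPARγ against the distance between the paired TSSs in bp. Grey bars are pairs with a region of both libraries, with 95% Wilson intervals, and points are pairs with any peak of library 1 (circles) or library 2 (squares). The bars rise from 32.8% at 1 to 100 bp to 61.3% at 301 to 500 bp and stand at 49.1% beyond 500 bp.

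Enrichment at the members was moderate. The median fold enrichment over input, a linear ratio that the authors' caller gives at the summit, was 7.70 (7.41 to 8.29) in library 1 and 5.35 (5.25 to 5.63) in library 2. In the 3048 regions at one-way promoters, whose TSSs have no such partner, it was 7.41 and 5.35, and in the 12415 distal regions, over 3 kb from any TSS, it was 6.52 and 5.35. The members therefore stood at the median percentile 61.1 of all consensus regions in library 1 and 49.6 in library 2. Of the members, 34 (7.38%, 5.33 to 10.1) were in the top 10% of library 1 and 36 (7.81%, 5.69 to 10.62) in that of library 2. The shares of all consensus regions, 9.59% and 10.59%, lay inside these intervals. They were 9.68% and 8.92% of one-way promoter regions, whose intervals overlapped those of the members. The highest member values were 21.9 and 15.1, against 35.5 and 25.7 among the more numerous regions at one-way promoters. Between the libraries, the Spearman correlation of the members' enrichment was 0.517 (n = 461 regions, all from the same libraries).

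**Figure D2:**
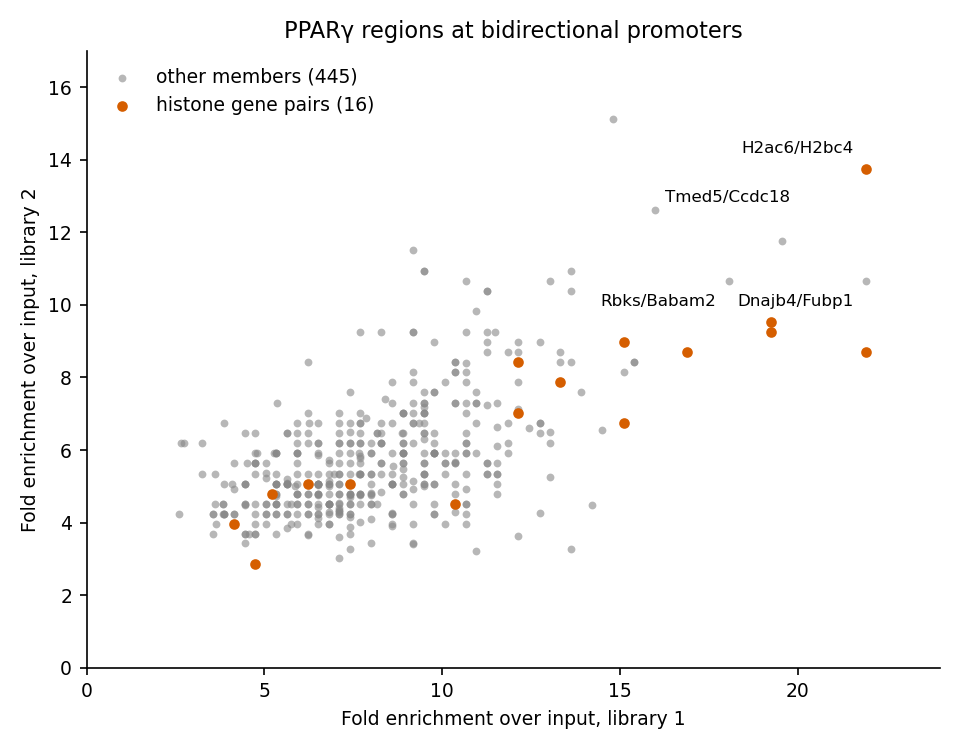
Fold enrichment over input of each member in library 1 (horizontal axis) and library 2 (vertical axis), with 1 point for each of the 461 regions, the 16 at histone gene pairs in orange and 4 of the best-ranked members named. Values span 2.61 to 21.9 in library 1 and 2.86 to 15.1 in library 2, and histone gene pairs occur at both ends of the range.

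The median width of the members was 566 bp (537 to 605), against 600 bp (583 to 615) at one-way promoters and 635 bp (626 to 645) in distal regions. The intervals of the promoter classes overlapped. Regions of at least 2 kb made up 3.04% (1.82 to 5.03) of the members, 4.04% (3.39 to 4.79) of one-way promoter regions and 6.57% (6.15 to 7.02) of distal regions. In library 1, 95.01% (92.6 to 96.7) of members consisted of 1 peak, compared with 91.9% (90.9 to 92.8) at one-way promoters. The peaks of library 2 at bidirectional promoters overlapped a library 1 peak in 93.8% of 531, and those of library 1 overlapped a library 2 peak in 35.0% of 1383. The same shares were 93.8% and 36.1% at one-way promoters and 80.5% and 24.7% for distal peaks.

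The strongest member by the lower of its percentiles in both libraries was H2ac6/H2bc4, with 21.9-fold enrichment in library 1 and 13.7-fold in library 2. It ranked 106 of all 20233 regions, of which 461 were members. H2ac6 and H2bc4 encode core histones H2A and H2B. Tmed5/Ccdc18 had values of 16.0 and 12.6. Tmed5 encodes a cargo receptor of the early secretory pathway. Dnajb4/Fubp1, a cochaperone of HSP70 next to a single-strand DNA-binding protein, had values of 21.9 and 10.7.

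Rbks/Babam2 had values of 18.1 and 10.7, with both summits inside Babam2, which encodes a subunit of BRCA1-A. Rbks encodes ribokinase. Cks1b/Shc1, at 13.6 and 10.9, joins a cofactor of cyclin-dependent kinases to a signalling adaptor. Nhlrc3/Proser1 (13.6 and 10.4) and Mettl25/Ccdc59 (13.0 and 10.7) had the summits of both libraries between the TSSs. The first 12 also held the histone pairs H2bc7/H2ac7 (19.3 and 9.54), H2ac15/H2bc15 (19.3 and 9.26) and H2bc9/H3c7 (15.1 and 8.98). Among the widest members were Tmem138/Cyb561a3 (3127 bp, 8.29 and 9.26) and Exd1/Chp1 (3080 bp, 11.3 and 8.70).

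Replication-dependent histone genes encode the core histones that package newly made DNA. They formed 13 divergent pairs, 12 on chromosome 13 and 1 on chromosome 3, and 9 of the pairs had a region (background 44.3% of all pairs). At these 9 pairs the best region had 12.1 to 21.9-fold enrichment in library 1 and 6.75 to 13.7-fold in library 2. H2ac8/H2bc8 reached 21.9 and 8.70, and H2bc13/H2ac13 16.9 and 8.70. H2ac12/H2bc12 had a peak of library 1 only, and H2ac24/H4bc24, H2bc1/H2ac1 and H2bc23/H2ac23 had none. Over all 16 members at histone pairs the medians were 12.7 (6.22 to 19.3) and 7.45 (4.80 to 8.98), against 7.70 (7.41 to 8.16) and 5.35 (5.25 to 5.63) in the other 445 members. The intervals overlapped in both libraries. Of the 16 members whose lower percentile exceeded 90, 6 were at histone pairs. Histone genes are near-identical copies, and the authors filtered alignments by quality. Reads of histone coding sequences can therefore be lost or placed at the wrong copy, and the values of single pairs are uncertain. An NF-Y pattern lay within 100 bp of the library 1 summit in 8 of the 16 (50%) and in 18.7% of other members, a TATA pattern in 62.5% and 9.89%, and an ETS pattern in 16.0% of other members but in 0 of the 16, which allows a share of up to 18.8%.

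Summits gathered around the midpoint of the TSS pair. In library 1, 214 of 461 strongest summits (46.4%, 41.9 to 51.0) lay between the TSSs, and in library 2, 195 (42.3%, 37.9 to 46.9) did, although the DNA between the TSSs made up 15.5% of the joint windows. The others were divided about evenly between the flanks. In library 1, 126 lay beyond the minus-strand TSS and 121 beyond the plus-strand TSS, and in library 2, 141 and 125 did. The median distance from the midpoint was 138 bp (125 to 172) in library 1 and 163 bp (140 to 194) in library 2. A summit lay within 100 bp of either TSS in 46.0% and 45.3% of members. Summits up to 200 bp upstream of a TSS made up 41.2% (library 1) and 37.5% (library 2) of members. At one-way promoters they made up 45.2% and 40.03%, and the intervals overlapped in both libraries. A gathering of summits just upstream of a TSS was thus shared with one-way promoters. Shares downstream cannot be compared, since a one-way window ends 100 bp past the TSS. Since the rule keeps regions with a centre in the windows, it bounds these distances. The comparison with 15.5% is with the window and not with the genome.

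**Figure D3:**
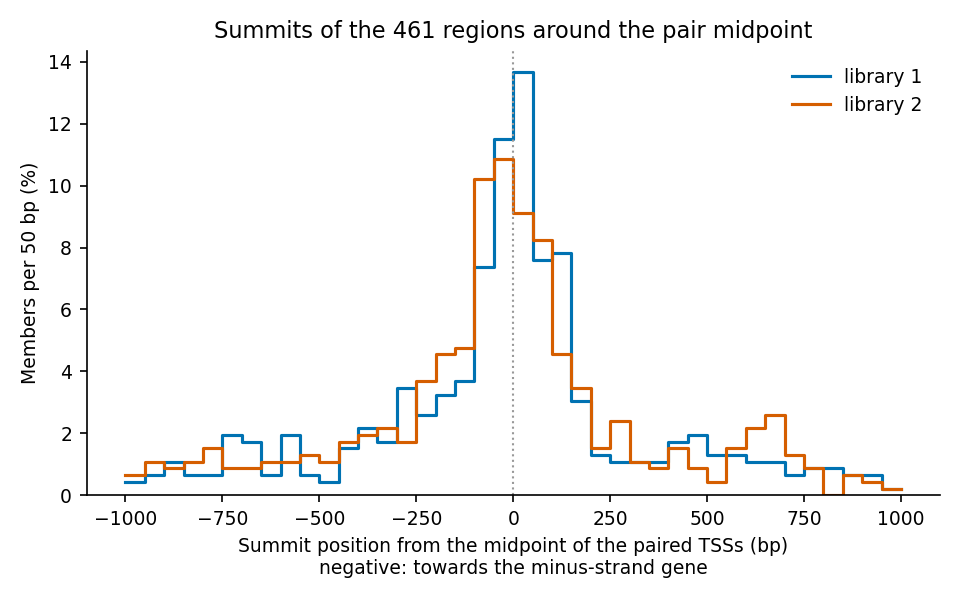
Position of the strongest summit of each member from the midpoint between the paired TSSs, in bp, as the percentage of the 461 members per 50 bp, for library 1 (blue) and library 2 (orange). Negative positions point towards the minus-strand gene. Both profiles are highest within 100 bp of the midpoint and low on either side, with median distances of 138 and 163 bp.

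The place of the summit followed the spacing of the TSSs. Summits between the TSSs made up 11.5% (library 1) and 10.6% (library 2) of members with TSSs at most 100 bp apart, where this DNA is 2.68% of the window, and 77.1% and 78.6% of members with TSSs 501 to 1000 bp apart, where it is 52.4%. The libraries put the summit in the same place, between the TSSs or on the same flank, in 342 members (74.2%, 70.0 to 78.0), and on opposite flanks in 18 (3.90%). Their strongest summits were within 100 bp of each other in 52.9% of members. The 154 members with both summits between the TSSs had median fold enrichments of 9.18 (8.29 to 9.48) and 5.63 (5.35 to 5.91), and the 206 with both summits on the flanks had 6.96 (6.52 to 7.41) and 5.07 (5.07 to 5.63). The intervals were apart in library 1 and overlapped in library 2. The median TSS distance was 353 bp in the first set and 121 bp in the other, and its part in the difference was not tested. Where a pair had several regions, 32 of 50 pairs had them on both sides of the midpoint.

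Sequence patterns were counted around the summits. Within 100 bp of the library 1 summit, an NF-Y pattern (the CCAAT-box factor) occurred in 19.7% (16.4 to 23.6) of members, against 14.9% at one-way promoters and 4.91% of distal regions. The difference from one-way promoters was 4.81 points (1.19 to 8.88), and at library 2 summits it was 4.80 points (1.34 to 8.72). ETS patterns, recognised by GABPA and ELK1 among others, occurred in 15.4% (12.4 to 19.0), against 10.8% and 1.39%. The difference was 4.57 points (1.35 to 8.31) in library 1 and 5.22 (2.10 to 8.86) in library 2. YY1 patterns (AAGATGGCG) occurred in 2.82% and 1.35% of regions at bidirectional and one-way promoters, a difference of 1.47 points (0.217 to 3.45), and of 1.97 points (0.620 to 4.05) in library 2. These intervals are not adjusted for the 19 patterns compared. With 50 bp on each side of the summit, the difference was 2.35 points (-0.600 to 5.84) for NF-Y and 0.310 (-0.316 to 1.67) for YY1. Over all curated TSSs, with the same window, the shares were 9.29% for NF-Y, 9.50% for ETS and 1.92% for YY1.

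The shares of the NRF1, SP/KLF, CRE and E-box patterns did not differ from one-way promoters beyond counting error. NRF1 patterns occurred in 3.90% and 3.74% (difference 0.164, -1.43 to 2.43), SP/KLF patterns (GGGGCGGGG) in 7.16% and 8.89% (difference -1.73, -4.01 to 1.16), CRE patterns (TGACGTNA) in 5.42% and 4.69%, and E-boxes (CACGTG) in 8.46% and 7.78%. PU.1, AP-1 and RUNX patterns were less frequent in members than in distal regions. A PU.1 pattern occurred in 10 members (2.17%), against 8.25% of distal regions, a difference of -6.08 points (-7.18 to -4.24), and 3.74% of one-way promoter regions, a difference of -1.57 points (-2.80 to 0.311). An AP-1 pattern (TGANTCA) occurred in 6.29% of members, 5.91% of one-way promoter regions and 11.6% of distal regions, and a RUNX pattern (TGTGGTT) in 3.25%, 3.90% and 9.75%. The C/EBP pattern occurred in 1.52% of members and 0.862% of distal regions and the STAT pattern in 7.81% of each, and both intervals of the difference held 0. Base composition differed as well. The windows had a median GC content of 55.2% in members, 54.2% at one-way promoters and 43.8% in distal regions, with CpG observed/expected ratios of 0.765, 0.661 and 0.204. Its part in these differences was not tested.

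An exact DR1 lay at none of the 461 library 1 summits, which allows a share of up to 0.651% (3 counts of the total), and at 0.0328% of one-way and 0.0725% of distal summits. With 1 mismatch allowed, 1 member had a DR1 at the library 1 summit (0.217%) and 5 (1.08%) at the library 2 summit. At one-way promoters the shares were 0.328% and 0.525%, and both intervals of the difference held 0. The share was 0.999% of distal regions at library 1 summits and 0.312% over all curated TSSs. At the midpoint of the TSSs, 1 of the 413 pairs with a region had an exact DR1 (0.242%). The hexamer AGGTCA alone occurred in 11.3% of members, 10.8% of one-way promoter regions and 16.9% of distal regions. A search for exact letters misses variant sites.

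**Figure D4:**
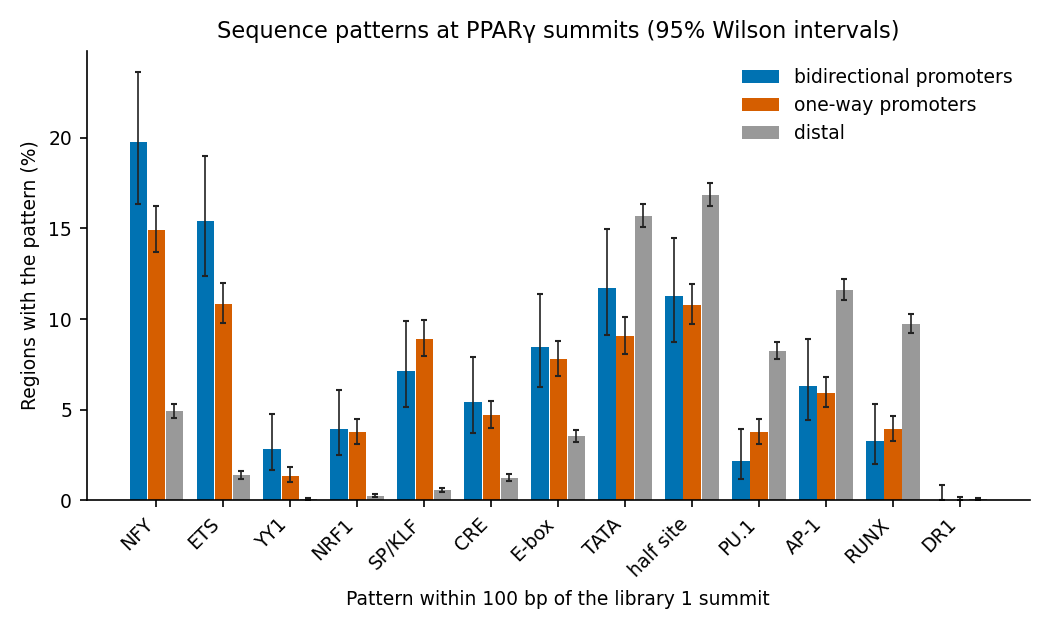
Percentage of regions with each sequence pattern within 100 bp of the library 1 summit, for members (blue), one-way promoter regions (orange) and distal regions (grey), with 95% Wilson intervals. NF-Y and ETS patterns are most frequent in members (19.7% and 15.4%), PU.1, AP-1 and RUNX patterns are most frequent in distal regions, and exact DR1 is near 0 in all classes.

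The members with an NF-Y pattern had median folds of 9.48 (8.89 to 10.4) and 5.91 (5.57 to 6.75) in 91 members, against 7.41 (7.11 to 7.70) and 5.35 (5.07 to 5.48) in the 370 without. The intervals were apart in both libraries. Leaving out histone pairs gave 9.18 (8.59 to 9.78) and 5.91 (5.35 to 6.47) with the pattern, so that the interval in library 2 then overlapped that of members without it (5.07 to 5.63). Among the 154 members with both summits between the TSSs, the medians were 9.92 (9.18 to 11.6) and 6.49 (5.63 to 7.25) with the pattern and 8.74 (7.70 to 9.48) and 5.55 (5.35 to 5.85) without, and the intervals overlapped in both libraries. For ETS, the medians were 8.59 (7.70 to 9.18) and 5.14 (4.80 to 5.91) with and 7.70 (7.41 to 7.998) and 5.35 (5.35 to 5.63) without, and the intervals overlapped.

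The sequence at the midpoint of all divergent pairs was then compared between pairs with and without a region. Pairs with a region had a lower GC content, with a median of 60.2% (59.2 to 61.7) against 63.2% (62.7 to 64.7). Around the TSS of lowest coordinate of other genes the order was the reverse, 64.7% with a region and 58.7% without. The median TSS distance was 192 bp in pairs with a region, 131 bp with a library 1 peak only and 115 bp with no peak. It was 102 bp with unshared peaks of both and 752 bp in the 6 pairs with library 2 only. The part of spacing in the GC difference was not tested. The share of pairs with a region was 43.3%, 42.5%, 42.9% and 48.5% over quartiles of the CpG observed/expected ratio, all with overlapping intervals. ETS patterns were less frequent at the midpoint of pairs with a region, at 19.8% against 26.6%, a difference of -6.74 points (-12.1 to -1.25). This depended on spacing. With TSSs at most 200 bp apart the difference was -8.67 points (-16.1 to -0.765), and beyond 200 bp it was 4.72 points (-1.96 to 11.1). NF-Y patterns occurred in 18.9% and 17.3% (difference 1.54, -3.39 to 6.60) and NRF1 patterns in 8.96% and 11.4% (difference -2.41, -6.26 to 1.58). TATA patterns were more frequent with a region, at 5.08% against 2.12% (difference 2.97, 0.581 to 5.69), and without histone pairs the difference was 2.02 points (-0.177 to 4.55).

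Gene groups were compared through the genes of divergent pairs with a region in their own window, against 37.8% of all such genes. The highest shares were those of cytosolic ribosomal proteins, with 9 of 13 (69.2%, 42.4 to 87.3), and histones, with 18 of 26 (69.2%, 50.01 to 83.5), the latter counting both genes of 9 pairs. Both intervals lay above the background. All histone genes here come in pairs with both genes in the list, so their interval by gene is too narrow. Counted by pair, histones had 9 of 13, with an interval of 42.4 to 87.3 that included the background of 44.3% of all pairs. Among ribosomal protein genes, Rpl9 had 10.4-fold enrichment in library 1 and 8.15-fold in library 2, Rps27 had 9.36 and 6.75, and Rpl7a 9.18 and 7.02, while Fau, Rpl12 and Rpl18 had none centred in their own window, although the region of Mrpl49 overlapped the TSS of its partner Fau. Outside divergent pairs, 43 of 74 ribosomal protein genes (58.1%), 32 of 60 histone genes (53.3%) and 28 of 63 chaperone genes (44.4%) had a promoter region too. The share over all protein-coding genes outside divergent pairs was 14.9%. Within divergent pairs, chaperones followed with 12 of 20 (60%, 38.7 to 78.1). They included Dnajb4, Hsp90b1 of the endoplasmic reticulum (11.6 and 7.31) and Hspd1/Hspe1, the pair of the mitochondrial HSP60 and its cochaperonin (12.7 and 6.75), while Ahsa1, Cct3 and Cct6b had none in their own window. None of these intervals is adjusted for the 17 lists compared, and the shares depended on the libraries. With library 1 alone, 79.3% of all genes of divergent pairs had a region. The shares were 76.9% for ribosomal proteins, 76.9% for histones and 90% (69.9 to 97.2) for chaperones, and each interval included the background. With library 2 alone, the background was 40.3% and the shares were 84.6%, 69.2% and 60%. The interval of chaperones (38.7 to 78.1) included that background. With a fold of at least 5 in both lists, the background was 24.5% and the shares were 53.8%, 69.2% and 35%, and the interval of chaperones (18.1 to 56.7) then included the background.

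**Figure D5:**
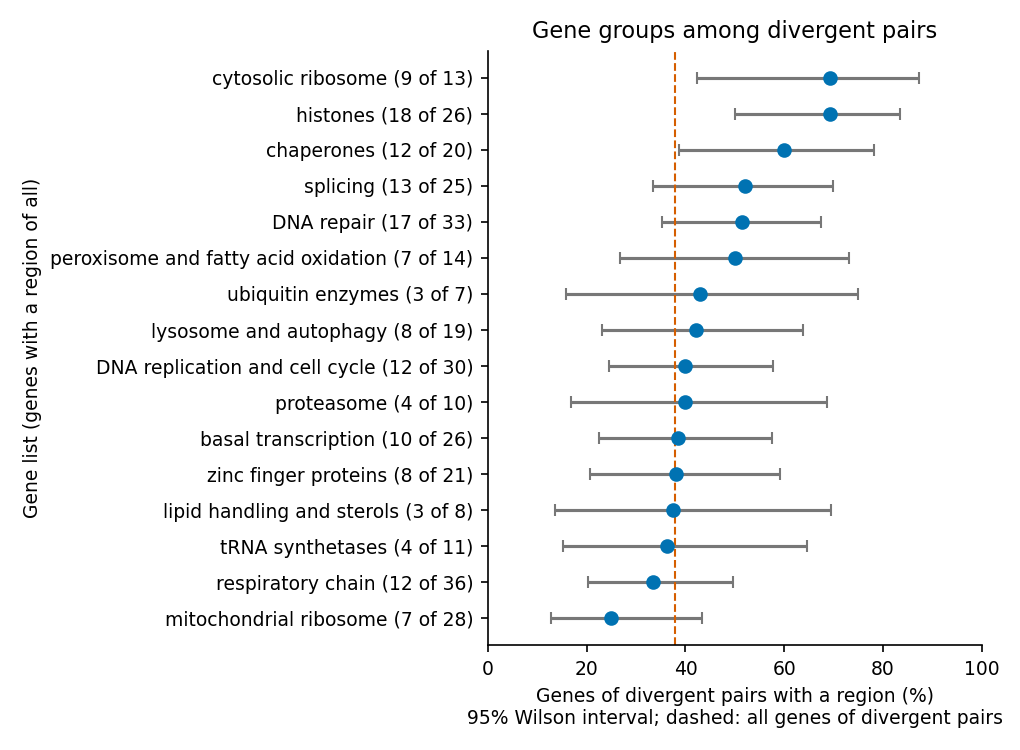
Percentage of genes of divergent pairs with a region in the window of their own TSS, for each gene group with at least 5 such genes, with 95% Wilson intervals and the counts beside the names. The dashed line is the 37.8% of all genes of divergent pairs. The intervals of cytosolic ribosomal proteins, histones and chaperones lie above the line, and all others cross it. Both genes of each histone pair are counted, so the histone interval is too narrow.

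Counted by gene, the intervals of the other groups included the background. Splicing factors had 13 of 25 (52%), among them Srsf2 (13.9 and 7.59), Son (10.1 and 7.87) and Hnrnpa1 (9.48 and 10.9), while Hnrnpa2b1, Hnrnpdl and Hnrnph3 had none in their own window. DNA repair genes had 17 of 33 (51.5%, 35.2 to 67.5). Palb2, which links BRCA1 and BRCA2, had 10.7 in both libraries, Mre11a, a nuclease of double-strand breaks, 9.18 and 9.26, Brca1 11.9 and 5.91, and Trp53, which encodes p53, 10.7 and 5.91. Atm and Eme1 had none in their window. Replication and cell cycle genes had 12 of 30 (40%), with Aurka at 9.78 and 7.59 and Cdc26 at 10.7 and 6.19. Respiratory chain genes had 12 of 36 (33.3%), with Ndufs1 of complex I at 9.48 and 7.59. The mitochondrial ribosome had the lowest share of the larger groups, with 7 of 28 (25%, 12.7 to 43.4), and its best gene, Mrpl18, had 7.11 and 7.03. Its share was 89.3% with library 1 alone (background 79.3%), 28.6% with library 2 alone (40.3%) and 3.57% with a fold of at least 5 (24.5%). Aminoacyl-tRNA synthetases had 4 of 11 (36.4%), with Yars at 9.78 and 7.59.

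Basal transcription genes had 10 of 26 (38.5%), with the Mediator subunits Med19 at 10.4 and 8.42 and Med29 at 13.0 and 6.51. The proteasome list had 4 of 10 (40%), of which Psme2, an activator subunit, had 8.16 and 6.47. Its best entry, Psme3ip1 (10.7 and 7.03), encodes a protein that interacts with an activator and is not a subunit. Ubiquitin enzymes had 3 of 7 (42.9%) and zinc finger proteins 8 of 21 (38.1%). Lysosome and autophagy genes had 8 of 19 (42.1%), including Atp6v1g2 (11.3 and 9.26), which encodes a proton pump subunit, and the autophagy genes Atg9a (10.4 and 7.31) and Atg13 (8.29 and 6.19).

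Of the genes of lipid metabolism, 14 of 73 for peroxisomes and fatty acid oxidation and 8 of 109 for lipid handling and sterols were in divergent pairs. The first group had a region at 7 of 14 (50%, 26.8 to 73.2). Acot8, a peroxisomal thioesterase, had 9.18 and 7.87, and Hadha/Hadhb, the pair that encodes both subunits of the mitochondrial trifunctional protein, had 7.41 and 6.75. Acad10, Acad8 and Acadsb had none centred in their own window, although the pair Acad8/Thyn1 had a region (4.44 and 4.52) through the window of Thyn1. Counted by pair, so that a region in the partner's window also counts, 10 of 13 pairs with a gene of this list had a region (76.9%). The background by pair was 44.3% of all pairs, against 37.8% by gene. By pair, the share was 73.7% (14 of 19) for lysosome and autophagy genes and 66.7% (4 of 6) for lipid and sterol genes. It was 84.6% for cytosolic ribosomal proteins, 69.2% for histones, 68.4% for chaperones and 37.5% for ubiquitin enzymes. High shares by pair were thus not particular to lipid genes. The shares by pair are given here without intervals. For the peroxisome list and the lysosome list they lay above the interval of the same list by gene (26.8 to 73.2 and 23.1 to 63.7). The order of the groups therefore depended on whether genes or pairs were counted. Of lipid and sterol genes, 3 of 8 had a region in their own window (37.5%). These were the sterol synthesis genes Mvk (8.63 and 5.57) and Dhcr7 (5.92 and 5.63), and Rxrb, which encodes an RXR (4.74 and 5.63). Of the macrophage and AM genes, 2 of 75 (2.67%, 0.734 to 9.21) were in a divergent pair, against 8.81% of all protein-coding genes, a share within that interval. These were Psmb9 and Tap1, which form 1 pair, and the pair had a peak of library 1 only. Of the 73 others, 28 (38.4%) had a region at a one-way promoter, against 14.9% of all protein-coding genes outside divergent pairs.

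Some well-known bidirectional pairs were followed whatever their values. Hspd1/Hspe1 had 2 regions, the stronger at 12.7 and 6.75 with both summits between the TSSs and the weaker at 3.85 and 4.24 inside Hspd1. Brca1/Nbr1 had a region of 2597 bp with 11.9 and 5.91, and Gart/Son, a purine synthesis gene next to a splicing cofactor, had 10.1 and 7.87. Mcm4/Prkdc, a replicative helicase subunit and the DNA-dependent protein kinase, had 9.18 and 3.96. Atg12/Ap3s1 had 9.78 and 4.24, and Mrps12/Sars2 6.52 and 4.43. In the last 3 pairs library 2 was in the lower part of its range, with lower percentiles of 9.44, 16.0 and 20.2. Atm/Npat and Psmb9/Tap1 had a peak in library 1 only. Surf1/Surf2 and Ppat/Paics did not form a divergent pair in this annotation.

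The pairs next to the limit of 1000 bp with a region are given as a description. Just inside were Tns1/Rufy4 at 993 bp (10.4 and 5.68), Zbtb25/Zbtb1 at 960 bp (5.92 and 5.91) and Urod/Hectd3 at 921 bp (8.89 and 5.48), and just outside were Ddias/Prcp at 1006 bp (12.4 and 7.87), Bet1l/Ric8a at 1014 bp (9.78 and 7.54) and Slc49a4/Hspbap1 at 1016 bp (9.18 and 6.19). On the X chromosome 4 of 25 pairs had a region (16%), against 44.3% of all pairs, and on the autosomes the share ran from 27.6% (chromosome 15) to 58.6% (chromosome 1). Annotated small RNA genes lay within 1 kb of 5 members (1.08%).

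Distal PPARγ regions were counted around the genes with a member. A distal region, assigned to the nearest protein-coding TSS, was found for 94 of 698 genes of divergent pairs with a region in their window (13.5%, 11.1 to 16.2) and for 1118 of 2845 other genes with a promoter region (39.3%, 37.5 to 41.1). The share was 8.78% for genes of divergent pairs without a region in their window and 15.2% for other genes without one. The DNA that could hold such a region, over 3 kb from any TSS, was shorter around divergent pairs, with medians of 16.8 and 42.4 kb per gene. Per Mb of this DNA there were 7.05 distal regions around genes with a member, 14.6 around other genes with a promoter region, 4.21 around genes of divergent pairs without a region and 3.48 around other genes without one.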

How the data were processed

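As the submitters' processing notes and the paper's methods state, the authors trimmed reads with Cutadapt, aligned them to mm10 with Bowtie2, filtered with SAMtools (bcl2fastq 2.20.0.422 for base calls) and called peaks of each library separately with MACS3, with its input as control and a q of 0.05. The deposited peak lists give the fold enrichment (a linear ratio over input), −log10 of the p-value and q-value, a score made from the q-value and the summit. Read counts are not part of the lists, and sequencing totals are not used here. The fold takes stepped values, so ties are frequent.

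Here, Python 3.11.15 with pandas 2.3.3, SciPy 1.17.1 and pysam 0.24.0 merged the peaks and paired TSSs of curated RefSeq transcripts of GRCm38.p6. The strongest peak of each library gave a region's fold and summit. The 19 patterns were searched on both strands within 100 bp. No test was run, since there is 1 ChIP group and regions are not replicates. The functions were tested on simulated data.

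Named members were the 12 with the best lower percentile, the 4 widest, up to 4 best-ranked genes with and 3 alphabetically first without a region for each of 17 lists, 10 pairs chosen by name, and 3 on each side of the distance limit. Some genes that these rules select are not reported here. Further genes named in a group were taken from these rules or from the histone pairs. Members, lists and patterns were chosen with earlier results of these data known. Alternatives were a q of 0.001, a fold of at least 5, other overlap, distance, position and window rules, GENCODE basic transcripts and each library alone. Input libraries were not analysed here.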

Additional observations from a re-analysis of the deposited data

How the results depend on the processing

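Stricter rules for a shared region lowered the counts. A fold of at least 5 in both lists left 282 members and 28.8% of pairs, with 53.6% of summits between the TSSs, median folds of 9.03 and 6.19 and a median width of 658 bp. A reciprocal overlap of 50% left 258 members and 25.6% of pairs, with a median fold of 5.70 in library 2 and a width of 516 bp. Summits at most 100 bp apart left 257 members, 25.9% of pairs and a width of 528 bp. With a partner TSS within 300 bp, 40.9% of pairs had a region and 32.4% of summits lay between the TSSs, and within 500 bp, 40% did. Requiring overlap with a TSS gave 39.7% of pairs, 57.7% of summits between, a median fold of 8.59 in library 1 and a width of 608 bp. A centre between the TSSs or within 100 bp of one left 275 members, 29.5% of pairs, 66.9% of summits between, a median fold of 8.59 in library 1 and a width of 525 bp. A q of 0.001, overlapping 5′ ends and GENCODE basic transcripts moved none of these values beyond its interval or a count by over 1.5 times. The difference between genes of divergent pairs and other genes was positive under each of the 10 alternatives for which it was computed, from 12.3 to 44.3 points.

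Without library 1 or library 2 in turn, the count was 531 and 1383, the share of pairs 46.2% and 84.7%, the share of summits between 39.4% and 33.8% and the width 295 and 265 bp. The median fold was 5.33 in library 1 alone and 5.14 in library 2 alone.

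Of the patterns, the ETS share was 8.68% within 50 bp of the summit and 25.2% within 200 bp, and the NF-Y share 12.6% and 26.7%. The NF-Y difference from one-way promoters was 2.35 points within 50 bp, with an interval that held 0, and the PU.1 difference, -1.57 points (-2.80 to 0.311) within 100 bp, was -2.79 (-4.25 to -0.702) within 200 bp, with an interval that no longer held 0. The difference in CpG ratio between pairs with and without a region was 0.0179 and changed to -0.0137 with 50 bp. The cause was not tested. No paired analysis was possible because the input libraries that share the replicate numbers have no values here and no result comes from a test.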
